A study of Homo sapiens with 9 samples.

Results

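The tubulin isotypes described here are 10 genes of the human megakaryoblast line MEG-01. They are the beta tubulins TUBB1, TUBB, TUBB2A, TUBB2B, TUBB3, TUBB4B and TUBB6 and the alpha tubulins TUBA1A, TUBA1B and TUBA4A. The genes were chosen by symbol, with TUBB1, the isotype of platelets, as the starting point. All 10 were found by their Ensembl gene IDs among the 63241 genes of the deposited tables, 7 of them beta and 3 alpha tubulins. MEG-01 is an established line from the bone marrow of a patient with chronic myeloid leukaemia in blast crisis. Of 9 poly(A)-selected RNA-seq libraries, 3 were from untreated control cells, 3 from cells given As2S2 (arsenic disulfide) and 3 from cells given PMA (phorbol 12-myristate 13-acetate), which activates protein kinase C and is used to push such lines towards megakaryocytes. All 3 groups are 1 cell line, and neither a dose nor a treatment time stands in the labels. Whether replicates were separate cultures is also not given there, so the p-values cover sample-to-sample spread that may be technical only.

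Microtubules are hollow tubes built from dimers of an alpha and a beta tubulin. Vertebrates carry several genes of each class, and their products differ most at the acidic C-terminal tail, where enzymes add and remove side chains and, in most alpha tubulins, a final tyrosine. A maturing megakaryocyte makes TUBB1, the beta isotype restricted to this lineage, which forms most of the microtubule coil at the rim of the platelet. TUBA4A is the alpha isotype that rises late in megakaryocytes, and variants of both genes are known in inherited platelet disorders. TUBB and TUBA1B are general isotypes of dividing cells, TUBB3 and TUBB2B are best known from neurons, and TUBB6 is a divergent, widely expressed isotype. Cells also adjust tubulin mRNA to the pool of free dimers: TTC5 binds the start of a new tubulin chain on the ribosome and leads to the decay of its mRNA.

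The ends of the coding sequences show how far the isotypes differ and where TTC5 and the tail enzymes act. The sequences were read from GENCODE 29 transcripts (GRCh38), written 5′ to 3′ on the coding strand. The 12 bases at the start are shown for 1 beta and 1 alpha isotype of the platelet lineage, with the codons after the start codon in capitals, since these codons specify the stretch that TTC5 reads.
TUBB1 start: atgCGTGAAATT
TUBA4A start: atgCGTGAATGC
The last 60 coding bases, stop codon included, are shown for 6 isotypes on which the results turn, with in-frame GAA and GAG codons, which encode glutamate, in capitals.
TUBB1 end: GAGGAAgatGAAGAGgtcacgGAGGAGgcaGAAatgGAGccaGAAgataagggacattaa
TUBB end: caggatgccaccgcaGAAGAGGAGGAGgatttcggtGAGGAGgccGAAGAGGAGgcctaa
TUBB2A end: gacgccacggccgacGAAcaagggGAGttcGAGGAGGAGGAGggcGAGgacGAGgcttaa
TUBB2B end: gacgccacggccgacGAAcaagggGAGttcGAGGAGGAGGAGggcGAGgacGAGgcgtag
TUBB3 end: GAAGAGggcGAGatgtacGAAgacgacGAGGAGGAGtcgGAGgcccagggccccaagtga
TUBA4A end: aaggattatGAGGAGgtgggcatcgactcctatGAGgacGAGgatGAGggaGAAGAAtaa
These 60 bases held 9 such codons in TUBB1 and TUBB, 8 in TUBB2A, TUBB2B and TUBB3, and 7 in TUBA4A. The last sense codon of TUBA4A was GAA, so this alpha isotype carries no encoded terminal tyrosine codon.

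TUBB1 is on the plus strand of chromosome 20, TUBB (plus) and TUBB2A and TUBB2B (minus) are on chromosome 6, and TUBB3 (plus) is on chromosome 16. TUBB4B is on the plus strand of chromosome 9, TUBB6 on that of chromosome 18, TUBA1A and TUBA1B are on the minus strand of chromosome 12, and TUBA4A on that of chromosome 2. The coding sequence of TUBB1 was the most distant of the beta set, with 75.3% to 77.6% of aligned bases identical to the other 6 beta isotypes. TUBB2A and TUBB2B were 98.1% identical and TUBA1A and TUBA1B 97.2%. Where sequences are this close, reads can be split between genes, and the measured values of such pairs are uncertain. Of all 100-base windows of a transcript, 56.4% in TUBB2A and 46.2% in TUBB2B also occurred in another tubulin gene or pseudogene. The share was 37.2% in TUBA1B and 18.3% in TUBA1A, from 1.84% to 5.15% in TUBA4A, TUBB4B, TUBB and TUBB3, and 0% in TUBB1 and TUBB6.

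Each library held 18.2 to 20.4 times 1e6 counts. The filter on low counts left 14592 genes, all 10 tubulins among them; TUBB1 passed that filter through the PMA libraries alone. Among libraries of 1 group, control replicate 2 and As2S2 replicate 1 differed most from their fellows and are the pair referred to below as standing apart. The chi-square per gene between libraries of 1 group was 12 to 15.2 for pairs with 1 of these libraries and 2.42 to 3.46 for all other pairs. Of the markers of the labelled cell type, ITGA2B, the alpha chain of the platelet fibrinogen receptor, had a mean of 190 TPM in control cells, whereas PF4 and VWF, products of platelet granules, had means of at most 0.05 TPM in every group. PF4 had 0 counts in the As2S2 libraries, which allows up to 0.0527 CPM (counts per 1e6 counts). In bulk RNA, fewer cells that express a gene and less RNA per cell cannot be told apart.

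In control cells 2 isotypes made up most tubulin RNA. Levels are compared between genes in TPM (transcript abundance corrected for length and set to the same sum in each library). TUBB, the general beta isotype, had 596, 643 and 616 TPM in control replicates 1 to 3, 817, 905 and 920 TPM in the As2S2 libraries and 343, 352 and 366 TPM in the PMA libraries. TUBA1B, the general alpha isotype, had 421, 495 and 444 TPM in control, 606, 659 and 684 TPM with As2S2 and 319, 331 and 344 TPM with PMA. On this scale every As2S2 library lay above, and every PMA library below, all control libraries for both genes.

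TUBB4B, another widely expressed beta isotype, had 62.2, 72.1 and 64.9 TPM in control, 91.0, 108 and 108 TPM with As2S2 and 87.2, 82.7 and 90.5 TPM with PMA. TUBB6 had 34.7, 41.2 and 40.0 TPM in control, 72.8, 79.7 and 83.3 TPM with As2S2 and 40.9, 43.6 and 44.7 TPM with PMA. TUBB2A had 21.4, 25.7 and 21.7 TPM in control, 51.7, 60.6 and 61.4 TPM with As2S2 and 37.5, 39.4 and 39.9 TPM with PMA. For TUBB2A and TUBB4B both treated groups lay above control without overlap in TPM, whereas the PMA libraries of TUBB6 overlapped those of control.

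Among the scarcer isotypes the order changed with treatment. TUBB2B, nearly identical to TUBB2A, had 11.1, 13.0 and 11.5 TPM in control, 6.62, 8.46 and 8.43 TPM with As2S2 and 3.65, 3.33 and 3.68 TPM with PMA. TUBB3, the neuronal isotype, had 1.38, 1.92 and 1.21 TPM in control, 3.20, 4.15 and 3.64 TPM with As2S2 and 5.70, 5.25 and 7.07 TPM with PMA. TUBB2B lay above TUBB3 in every control and As2S2 library and below it in every PMA library. The minor alpha isotypes started at like levels, TUBA1A with 21.8, 25.1 and 26.3 TPM in control and TUBA4A with 22.2, 24.5 and 23.5 TPM. With As2S2, TUBA1A had 74.5, 81.3 and 82.1 TPM and TUBA4A 74.1, 80.4 and 86.2 TPM. With PMA, TUBA1A had 24.4, 25.9 and 28.97 TPM, which overlapped control, and TUBA4A 30.3, 30.8 and 31.0 TPM, which did not.

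TUBB1 stood at the foot of the range in every library. It had 0.01, 0.04 and 0.05 TPM in control and 0.03, 0.02 and 0.05 TPM with As2S2, from 1, 3.01 and 4.02 estimated counts and from 2, 2 and 4 counts. With PMA it had 1.19, 1.01 and 1.27 TPM, from 105, 94.1 and 119 counts. The PMA libraries lay far above the others, and still below every other listed isotype in the same libraries.

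**Figure D1:**
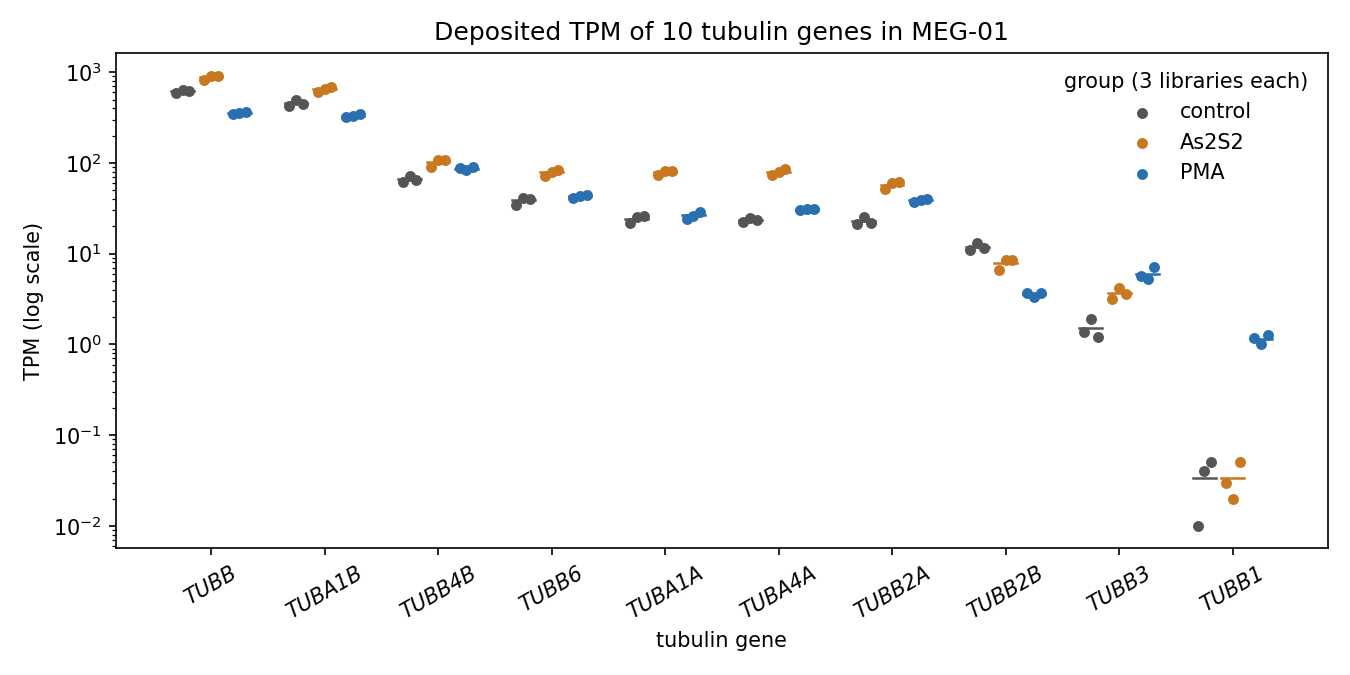
TPM (log axis) of the 10 tubulin genes, ordered by their control mean, in 3 control, 3 As2S2 and 3 PMA libraries; points are libraries and short lines are means of 3. TUBB1 sits at 0.01 to 0.05 TPM in control and As2S2 and at 1.01 to 1.27 TPM in PMA, and TUBB2B and TUBB3 change places in the PMA libraries.

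PMA against control asks how the tubulin set differs after a known inducer of megakaryocytic differentiation. Of the 10 isotypes 7 were higher, 2 were lower and 1 did not pass the test (edgeR quasi-likelihood test, adjusted over all tested genes, threshold 0.05). On this count scale TUBB1 had the highest log2 fold change, 5.53 ± 0.34 (SE, adjusted p = 6.23e-10), over a base of 8 counts in the control libraries together, and TUBB3 followed with 2.52 ± 0.17 (adjusted p = 2.51e-09). TUBB1 entered the test only through its PMA counts, so its p-value and its place among the 7 are no independent support. On log2(TPM + 0.5), which understates the change of scarce genes, the order was the other way, with 1.63 for TUBB1 and 1.71 for TUBB3 (limma, adjusted p = 2.4e-07 and 9.13e-06). TUBB2A rose by 1.28 ± 0.11 on the log2 scale (adjusted p = 2.65e-08), while TUBB2B fell by 1.25 ± 0.13 (adjusted p = 4.82e-07). Over all genes tested 30.8% were called higher with PMA and 31.1% lower, or 61.9% in either direction, so most genes of this line were called and a called tubulin is by itself no rarity. The libraries of 9 isotypes did not overlap between PMA and control in TMM-scaled CPM, as for 67.5% of all genes. The median log2 fold change was 0.71 over the 10 isotypes and 0.00476 over all genes tested.

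TUBB4B (0.87 ± 0.09, adjusted p = 7.05e-07) and TUBA4A (0.83 ± 0.10, adjusted p = 3.75e-06) also rose, by edgeR's test. TUBB6 (0.60 ± 0.09, adjusted p = 2.14e-05) and TUBA1A (0.59 ± 0.09, adjusted p = 2.58e-05) rose by less. TUBB, the most abundant isotype, fell by 0.33 ± 0.08 (adjusted p = 0.00109). TUBA1B did not pass (0.02 ± 0.09, adjusted p = 0.875).

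The scale matters for the changes with PMA, for the fold change of TUBB1 as given above and for the call of the small ones. The fold changes above are on counts scaled by TMM, which sets the bulk of genes level, and TPM sets the sum of all transcripts level. The fetal globin HBG2 had a mean of 7723 TPM in control, 10105 TPM with As2S2 and 35013 TPM with PMA. Its part in the difference between the scales was not tested. On log2(TPM + 0.5) with limma the median of all genes shifted to -0.32 for PMA against control, and the higher calls fell from 4494 of 9034 on the TMM scale to 1981 of 8985. On library totals without TMM the median was -0.26, with 2955 of 9431 calls higher. On the TPM scale TUBA1B was lower with PMA (-0.45, adjusted p = 0.00024), and TUBB6 (0.16, adjusted p = 0.114) and TUBA1A (0.11, adjusted p = 0.297) did not pass. TUBB1, TUBB3, TUBB2A, TUBB4B and TUBA4A were higher, and TUBB and TUBB2B lower, on all of these scales.

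As2S2 against control asks whether the arsenic compound gives a like change. Of the 10 isotypes 8 were higher, 1 was lower and 1 did not pass (edgeR, as above); over all genes 20.3% were called higher and 19.6% lower. The libraries of 9 isotypes did not overlap between As2S2 and control, as for 45.8% of all genes. The highest fold changes were in the minor alpha isotypes, TUBA4A with a log2 fold change of 1.89 ± 0.10 (adjusted p = 1.97e-09) and TUBA1A with 1.82 ± 0.09 (adjusted p = 4.68e-10). TUBB3 (1.51 ± 0.18, adjusted p = 7.16e-06), TUBB2A (1.46 ± 0.10, adjusted p = 3.65e-08) and TUBB6 (1.16 ± 0.09, adjusted p = 7.27e-08) also rose more than 1 on the log2 scale. The abundant isotypes TUBB (0.63 ± 0.08), TUBA1B (0.64 ± 0.09) and TUBB4B (0.75 ± 0.09) rose with adjusted p between 7.84e-06 and 2.61e-05. TUBB2B was the isotype that fell, by 0.47 ± 0.12 (adjusted p = 0.00645).

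TUBB1 did not pass with As2S2, with a log2 fold change of 0.12 ± 0.63 (edgeR, adjusted p = 0.906). The ratio of its summed counts per library total, As2S2 to control, was 1.03, with a 95% exact Poisson interval from 0.337 to 3.15 that covers counting error only. A change of TUBB1 within that interval was not detectable at this depth. For PMA against control the same ratio was 40.4, from 20.2 to 94.3. The median over the 10 isotypes with As2S2 was 0.96, beside -6.77e-05 over all genes. Without control replicate 2 and As2S2 replicate 1, which was chosen after seeing the data, 8 isotypes were again higher and 1 lower with As2S2, and 8 were higher and 2 lower with PMA, the added call being TUBA1B (0.13, adjusted p = 0.00451). Calls over all genes then rose too, from 5821 to 7489 with As2S2 and from 9034 to 10076 with PMA.

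**Figure D2:**
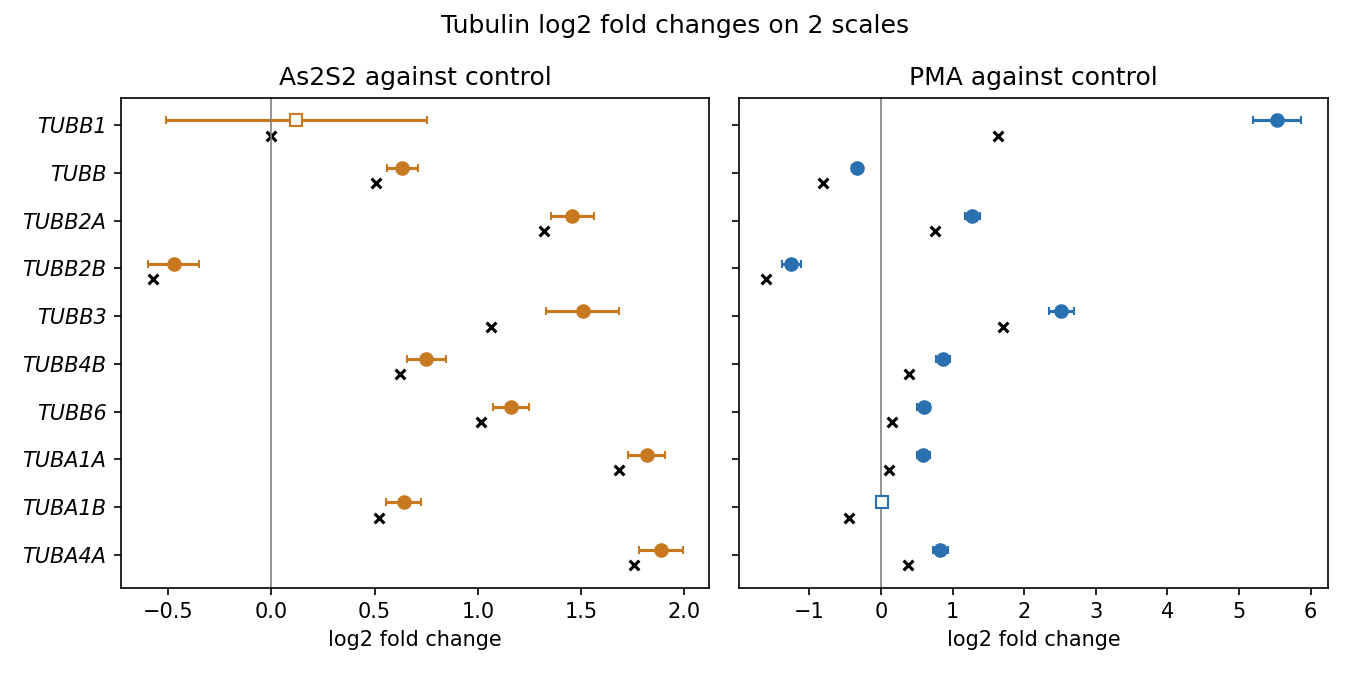
Log2 fold change of each isotype for As2S2 (left) and PMA (right) against control, on axes of different range; filled circles passed the edgeR test, open squares did not, bars are SE of the fit over 9 libraries, and crosses are the same contrast on log2(TPM + 0.5). With PMA the crosses lie to the left of the circles, and TUBA1B has 0.02 on the TMM scale and -0.45 on the TPM scale.

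The treatments were also compared with each other directly. Of the isotypes 6 were higher with As2S2 than with PMA and 2 were lower, at a background of 30.9% of all genes called higher and 30.6% lower. The libraries of 8 isotypes did not overlap, as for 67.2% of all genes. TUBB1 was lower with As2S2 than with PMA by a log2 difference of -5.41 ± 0.34 (edgeR, adjusted p = 1.02e-09) and TUBB3 by -1.01 ± 0.15 (adjusted p = 2.50e-05). Here too TUBB1 was tested only because of its PMA counts. TUBA1A (1.23 ± 0.09, adjusted p = 5.42e-09), TUBA4A (1.06 ± 0.10, adjusted p = 1.81e-07) and TUBB (0.97 ± 0.08, adjusted p = 1.66e-08) were higher with As2S2. TUBB2B (0.78 ± 0.13), TUBA1B (0.62 ± 0.09) and TUBB6 (0.56 ± 0.09) were too, with adjusted p between 1.05e-05 and 9.95e-05. TUBB2A (0.18 ± 0.10, adjusted p = 0.134) and TUBB4B (-0.12 ± 0.09, adjusted p = 0.281) did not pass, and TUBB4B turned to 0.24 (adjusted p = 0.0311) on the TPM scale. TUBB2A passed on that scale (0.56, adjusted p = 0.000331) and without the pair of libraries that stood apart (0.27, adjusted p = 2.34e-05).

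Because both treatments moved several isotypes at the same time, each was also expressed as a share of the summed TPM of the listed genes of its class, which does not depend on the scaling between libraries. TUBB made up 81.4% ± 0.676 (SD, n = 3) of beta tubulin in control, 77.9% ± 0.440 with As2S2 and 66.3% ± 0.356 with PMA. What TUBB lost with PMA was spread over several isotypes. TUBB4B held 8.73% ± 0.277 in control, 9.05% ± 0.286 with As2S2 and 16.3% ± 0.555 with PMA. TUBB6 held 5.08% ± 0.274 in control, 6.95% ± 0.101 with As2S2 and 8.07% ± 0.199 with PMA. TUBB2A held 3.01% ± 0.182, 5.11% ± 0.133 and 7.30% ± 0.150 in the same order of groups.

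The shares of TUBB2B and TUBB3 crossed. TUBB2B held 1.56% ± 0.0625 in control, 0.691% ± 0.0485 with As2S2 and 0.667% ± 0.0356 with PMA. TUBB3 held 0.197% ± 0.0409, 0.323% ± 0.0282 and 1.12% ± 0.142. TUBB1 held 0.00434% ± 0.00269 in control, 0.00294% ± 0.00125 with As2S2 and 0.217% ± 0.0217 with PMA, so that even after its rise it was the scarcest of the 7 beta isotypes.

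In the alpha class TUBA1B held 90.4% ± 0.490 of the listed TPM in control, 80.3% ± 0.0201 with As2S2 and 85.3% ± 0.116 with PMA. TUBA4A held 4.68% ± 0.155, 9.91% ± 0.168 and 7.91% ± 0.225, and TUBA1A 4.88% ± 0.392, 9.81% ± 0.151 and 6.79% ± 0.338. TUBA1C, a close relative of TUBA1B outside the list, was also abundant, with 227 ± 22.1 TPM in control, 304 ± 11.4 with As2S2 and 175 ± 15.8 with PMA. With all alpha genes in the denominator TUBA4A held 3.21%, 7.18% and 5.44% and TUBA1B 62.0%, 58.2% and 58.7%.

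In 27 of the 30 comparisons of a share between groups the libraries did not overlap, and the two-sided exact permutation test gave p = 0.1, the smallest that 3 against 3 libraries allow (0.111 after Benjamini-Hochberg adjustment over 30). The exceptions were TUBB1 (p = 0.5) and TUBB4B (p = 0.2) for As2S2 against control and TUBB2B (p = 0.5) for As2S2 against PMA, by the same exact test.

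**Figure D3:**
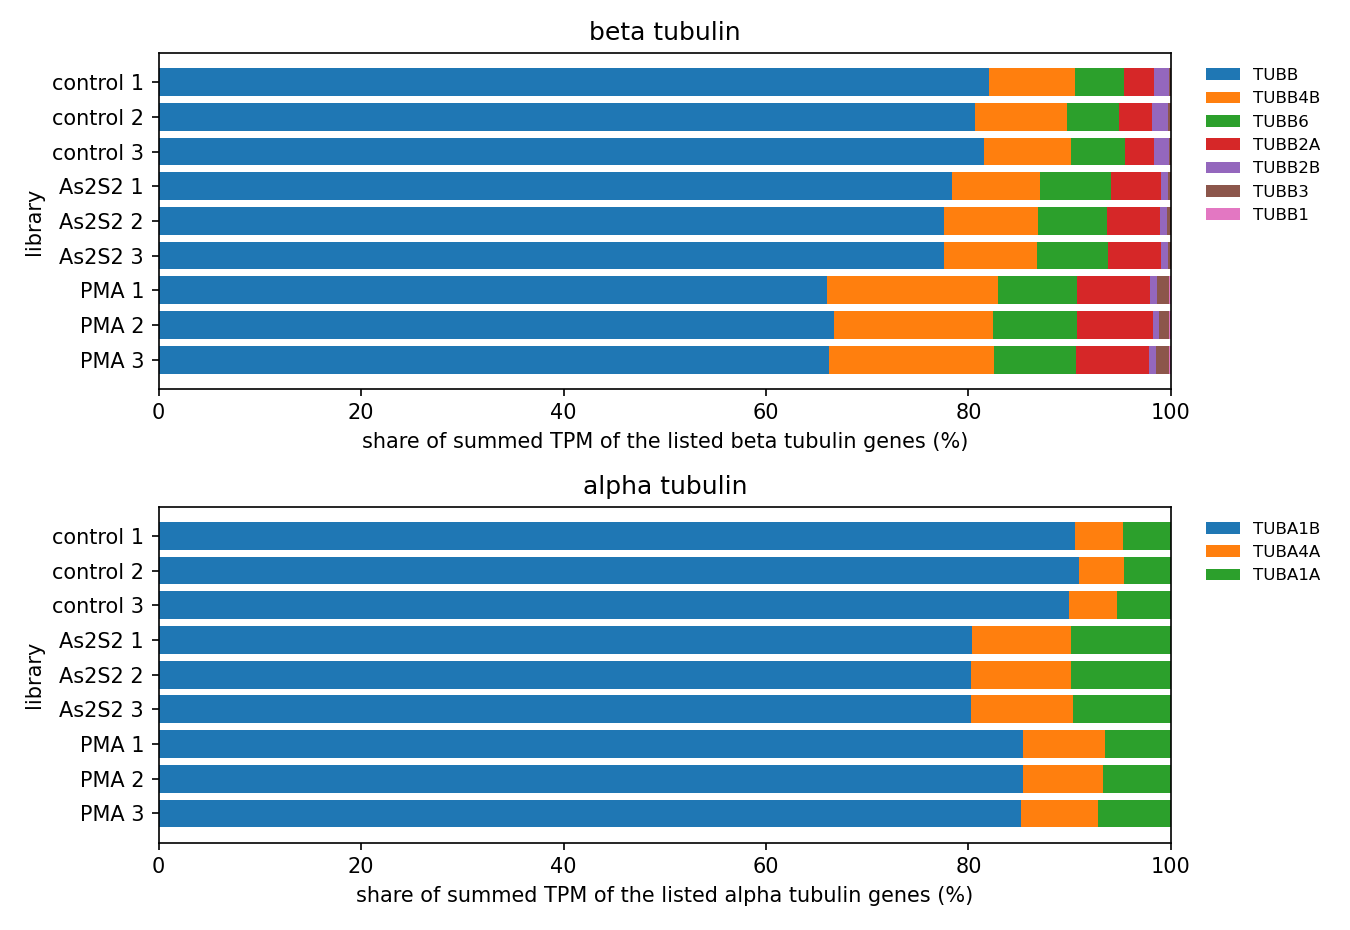
Share (%) of the summed TPM of the 7 listed beta (top) and 3 listed alpha (bottom) tubulin genes in each of the 9 libraries, stacked by isotype. TUBB narrows from 81.4% in control to 66.3% in PMA while TUBB4B widens to 16.3%; the TUBB1 band, at most 0.229%, is too thin to see.

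Ratios within a library gave the same picture of unequal change. The log2 ratio of TUBA4A to TUBA1B was -4.24, -4.34 and -4.24 in control, -3.03, -3.03 and -2.99 with As2S2 and -3.40, -3.42 and -3.47 with PMA. The log2 ratio of TUBB6 to TUBB was -4.10, -3.96 and -3.94 in control, -3.49, -3.51 and -3.47 with As2S2 and -3.07, -3.01 and -3.03 with PMA. For TUBB2A to TUBB4B it was -1.54, -1.49 and -1.58, then -0.82, -0.84 and -0.82, then -1.22, -1.07 and -1.18. For each ratio no library overlapped between any groups, at an exact permutation p of 0.1 in each of 9 tests (0.1 adjusted). As2S2 moved TUBA4A:TUBA1B and TUBB2A:TUBB4B further than PMA did, and PMA moved TUBB6:TUBB further than As2S2 did.

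Summed over the listed genes, alpha tubulin was 501 ± 40.4 TPM in control, 809 ± 49.9 with As2S2 and 388 ± 15.2 with PMA. Beta tubulin was 760 ± 35.2, 1131 ± 77.9 and 533 ± 18.04 TPM. All groups were without overlap in both sums (exact permutation p = 0.1, adjusted 0.113 over 18 tests). These sums are on the TPM scale, where the median of all genes also shifted, to -0.32 for PMA against control (log2 TPM). On the TMM scale the main isotypes of the sums had log2 fold changes with PMA of 0.02 (TUBA1B) and -0.33 (TUBB). Whether the lower sums with PMA go beyond the shift of all genes was not tested. With all genes of each class, the ratio of alpha to beta TPM was 0.959 ± 0.0374 in control, 0.987 ± 0.0243 with As2S2 and 1.06 ± 0.0236 with PMA. This ratio was higher with PMA than in control without overlap (exact permutation p = 0.1), while As2S2 overlapped control (p = 0.4). Over the listed genes alone the ratio was 0.659 ± 0.0224 in control, 0.716 ± 0.0108 with As2S2 and 0.728 ± 0.00775 with PMA. There both treated groups lay above control without overlap (exact permutation p = 0.1) and overlapped each other (p = 0.2), so the place of As2S2 depended on which genes were summed.

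Most of these genes share exonic sequence with a gene on the opposite strand, and since no source used here gives the strand setting of the counting, reads there cannot be told apart. TUBB1 shares 1188 of its 3496 exonic bases with ATP5F1E, a subunit gene of the mitochondrial ATP synthase. ATP5F1E had 8962 counts over the control libraries, 9910 with As2S2 and 21095 with PMA, and TUBB1 had 0.0896, 0.0807 and 1.51 counts for every 100 of them. TUBB2B shares 174 of 2194 exonic bases with PSMG4, a proteasome assembly gene, whose counts fell in the same order, 1686, 1040 and 731, beside 1542, 1025 and 533 for TUBB2B. TUBA1B shares 1309 of 3574 bases with an antisense gene (ENSG00000258017) that had 7697, 11331 and 7392 counts, in the order of TUBA1B itself, with 48362, 69556 and 40441. TUBA1A shares 490 of 3421 bases with TUBA1C, which had 19348, 27995 and 19754 counts beside 2710, 8775 and 3369 for TUBA1A, both highest with As2S2. STK16, opposite TUBA4A with 627 of 4079 bases, had 1058, 856 and 1169 counts beside 2781, 9499 and 4081 for TUBA4A, and AFG3L2, opposite TUBB6 with 837 of 4117 bases, had 5636, 4288 and 4142 beside 4277, 8802 and 5341 for TUBB6. The part of these neighbours in the tubulin values was not tested.

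The promoters of TUBB1 and TUBB3 are shown since these isotypes had the highest fold changes with PMA, which acts on gene expression partly through AP-1. Each is the 250 bases before a RefSeq start site (GRCh38.p14), 5′ to 3′ on the gene's plus strand, with matches to the motifs searched in capitals. TUBB1 is at chr20:59019179-59019428 and the window of TUBB3, the more upstream of 2 in the table, at chr16:89921675-89921924.
TUBB1 promoter: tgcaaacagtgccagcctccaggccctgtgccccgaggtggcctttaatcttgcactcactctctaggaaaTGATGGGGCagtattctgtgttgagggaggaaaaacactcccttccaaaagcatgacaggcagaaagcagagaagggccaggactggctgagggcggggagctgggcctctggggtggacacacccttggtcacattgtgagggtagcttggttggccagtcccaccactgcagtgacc
TUBB3 promoter: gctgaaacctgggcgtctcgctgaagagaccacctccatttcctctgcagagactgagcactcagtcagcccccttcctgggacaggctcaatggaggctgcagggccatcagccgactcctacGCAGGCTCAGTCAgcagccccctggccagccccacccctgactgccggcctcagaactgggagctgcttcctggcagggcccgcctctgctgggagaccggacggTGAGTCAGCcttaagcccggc
Both strands were searched for AP-1 (TGANTCA), the antioxidant or MAF-type element (TGANNNNGC, which can overlap AP-1), AGATAA (bound by GATA1), RUNX (TGTGGT), ETS (ACCGGAAG) and a heat shock element. The TUBB3 window held TGAGTCA at base -21, a motif found in 6.57% of all 35116 promoter windows, with an overlapping match to TGANNNNGC and 2 more such matches upstream. The TUBB1 window held TGATGGGGC at base -179 and no AP-1 match. Over all promoter windows 35.2% hold TGANNNNGC. The other TUBB3 window, at chr16:89923092-89923341, held no match to AP-1 or any other motif searched. TGTGGT matched in the upstream window of TUBB6 (11.0% of all windows), and no other member window held a match. A match is a run of letters and not a measured binding site.

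The regulators of TUBB1 did not move as a block with it. NFE2, the transcription factor that is needed for TUBB1 in megakaryocytes, fell by 0.50 ± 0.08 on the log2 scale with PMA (edgeR, adjusted p = 6.54e-05) and by 0.50 ± 0.08 with As2S2 (adjusted p = 0.000182). Its small MAF partner MAFF rose with both, by 0.81 ± 0.08 with As2S2 (adjusted p = 6.79e-07) and by 0.43 ± 0.08 with PMA (adjusted p = 0.000146), and MAFG rose with As2S2 (0.58 ± 0.07, adjusted p = 8.92e-06). RUNX1 fell by 0.49 ± 0.07 with As2S2 and by 0.84 ± 0.07 with PMA. GATA1, the lineage factor of megakaryocytes and red cells, had log2 fold changes of -0.04 ± 0.10 (adjusted p = 0.803) and -0.01 ± 0.10 (adjusted p = 0.928), and without the pair of libraries that stood apart 0.18 (adjusted p = 0.0115) and 0.13 (adjusted p = 0.0412). FLI1 (0.46 ± 0.08) and TAL1 (0.31 ± 0.06) rose with PMA on the TMM scale, and on log2 TPM FLI1 had -0.02, TAL1 -0.13 and MAFF -0.04, none of which passed. Of the 8 regulators 5 were higher with As2S2, namely MAFF, MAFG, MAFK, FLI1 and TAL1, and 2 were lower. FLI1 and TAL1 thus rose with both treatments on the TMM scale. With PMA 3 were higher and 2 lower. Over all genes 20.3% were called higher and 19.6% lower with As2S2, and 30.8% and 31.1% with PMA. On log2 TPM 4 were lower with PMA, namely NFE2, RUNX1, MAFG and GATA1 (-0.46, limma, adjusted p = 0.00236). Calls over all genes leaned the same way there, with 1981 of 8985 higher.

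Genes that build, fold, modify and use tubulin were listed by role. Among 13 nucleation genes (gamma tubulins, their ring complex and the divergent tubulins) 1 was higher and 3 lower with As2S2, and 3 were higher and 3 lower with PMA. TUBE1, the epsilon tubulin of centrioles, fell by 0.49 ± 0.09 with As2S2 (edgeR, adjusted p = 0.000592) and by 1.67 ± 0.10 with PMA (adjusted p = 4.9e-10); on log2 TPM the As2S2 value was -0.31 and did not pass (limma, adjusted p = 0.0734). Of 11 folding and autoregulation genes 2 were higher and 3 lower with As2S2, and 2 were higher and 4 lower with PMA. TBCD, a chaperone that assembles the dimer, rose by 0.34 ± 0.08 with As2S2 (adjusted p = 0.00274) and fell by 0.88 ± 0.08 with PMA (adjusted p = 1.12e-07). TTC5 did not pass in either comparison, with 0.10 (adjusted p = 0.482) and -0.25 (adjusted p = 0.0523), whereas SCAPER, its partner in tubulin mRNA decay, fell by 1.75 ± 0.26 with PMA (adjusted p = 1.81e-05) and by 0.67 with As2S2 (adjusted p = 0.0269).

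Enzymes that act on the tails shown above moved in both directions. Of 18 tested modifying enzymes 5 were higher and 3 lower with As2S2, and 3 were higher and 7 lower with PMA. VASH1, which removes the terminal tyrosine of alpha tubulin, rose by 2.41 ± 0.12 on the log2 scale with PMA (edgeR, adjusted p = 4.41e-11) and had -0.33 with As2S2 (adjusted p = 0.0524). TTL, which puts the tyrosine back, rose by 0.36 with As2S2 (adjusted p = 0.0022) and by 0.32 with PMA (adjusted p = 0.00252), and the PMA value turned to -0.13 (adjusted p = 0.238) on log2 TPM. AGTPBP1, a deglutamylase, fell by 1.90 ± 0.19 with PMA (adjusted p = 2.8e-07), and TTLL4, a glutamate ligase, fell by 1.04 ± 0.10 (adjusted p = 1.42e-07). With As2S2 AGBL5, another deglutamylase, fell by 0.94 ± 0.10 (adjusted p = 2.54e-06).

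Of 25 tested genes of microtubule dynamics 10 were higher and 4 lower with As2S2, and 5 were higher and 13 lower with PMA, where the list's median was -0.50. MAP7, which recruits kinesin 1, rose by 2.09 ± 0.18 with As2S2 (edgeR, adjusted p = 2.97e-07). MAP1B, a stabilising protein best known from neurons, rose by 0.89 ± 0.14 with As2S2 (adjusted p = 9.44e-05) and fell by 2.68 ± 0.19 with PMA (adjusted p = 3.89e-09). The end-binding genes MAPRE1 (0.83 ± 0.07) and MAPRE2 (0.89 ± 0.08) rose with PMA. Of 21 genes of dynein, dynactin and kinesin 1, the motors that slide and load the microtubules of a proplatelet, 8 were higher and 1 lower with As2S2, and 9 were higher and 5 lower with PMA. KIF5B, the main kinesin 1 heavy chain, fell by 1.24 ± 0.13 with PMA (adjusted p = 2.94e-07) and DYNC1H1, the dynein heavy chain, by 1.06 ± 0.11 (adjusted p = 4.65e-07), while the light chain gene DYNLL1 rose by 0.85 ± 0.07 (adjusted p = 1.81e-08). The lists were compiled by hand and each list's counts stand beside the background of 20.3% higher and 19.6% lower with As2S2 and 30.8% and 31.1% with PMA.

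The counts of these lists depended on the libraries and the scale, as did those of all genes. Without the pair of libraries that stood apart, 7489 genes were called with As2S2 (3791 higher) and 10076 with PMA (5121 higher). With all libraries these were 5821 (2962 higher) and 9034 (4494 higher). On log2 TPM 1682 of 4725 calls were higher with As2S2 and 1981 of 8985 with PMA, so calls over all genes also leaned to lower values. Without the pair of libraries that stood apart, with As2S2 the nucleation list had 4 higher and 6 lower, the modifying enzymes 7 and 5, the dynamics list 10 and 8, and the motors 10 and 3. With PMA, nucleation then had 5 and 4, the folding list 2 and 6, the modifying enzymes 4 and 7, and the dynamics list 5 and 13 as before. On log2 TPM the lists leaned to lower values with PMA, with 8 lower for nucleation, 9 for folding, 12 for the modifying enzymes, 16 for dynamics and 12 for the motors, and at most 3 higher in each. For As2S2 on log2 TPM with limma the nucleation list lost all 4 of its edgeR calls (adjusted p from 0.0734 for TUBE1 to 0.43 for TUBGCP6), and SCAPER did not pass (-0.60, adjusted p = 0.0807). On the same scale the dynamics list had 4 higher and 3 lower and the motors 5 and 3. VASH1, AGTPBP1, AGBL5, MAP1B, MAPRE1 and MAPRE2 kept their direction and passed with PMA under each of these settings.

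**Figure D4:**
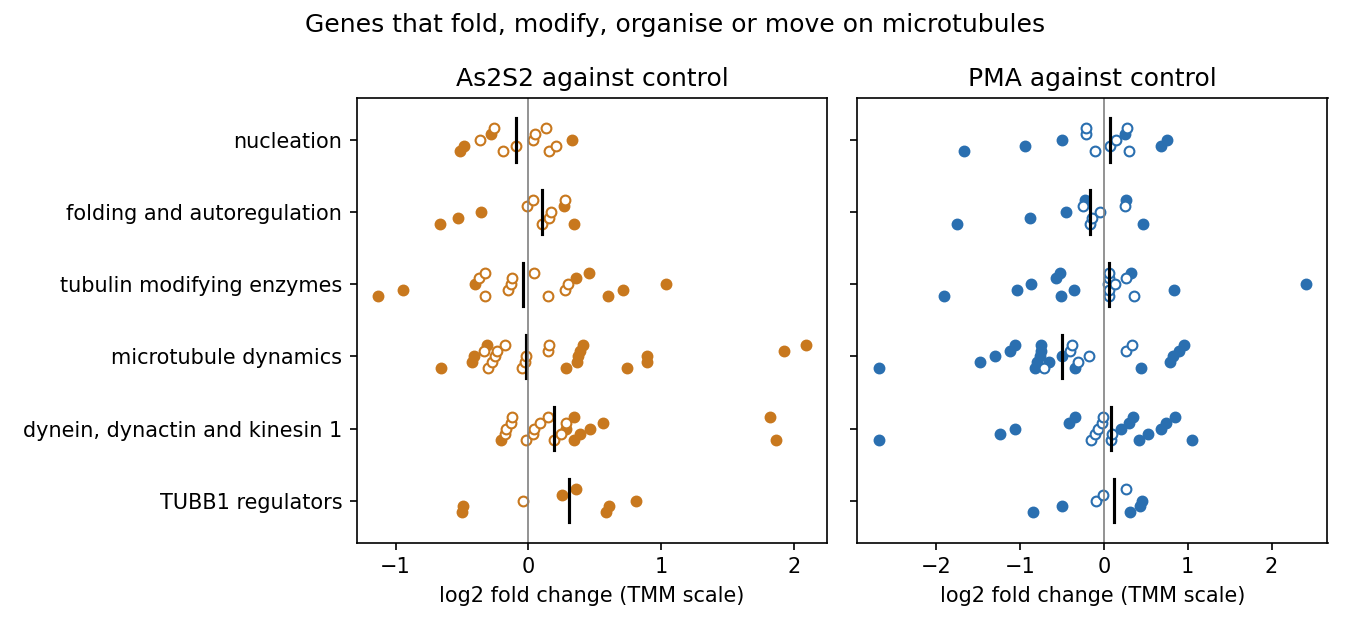
Log2 fold change (TMM scale) of each tested gene in 6 lists of tubulin-related genes for As2S2 (left) and PMA (right) against control; filled points passed the edgeR test, open points did not, and black lines are list medians. With PMA the microtubule dynamics genes have a median of -0.50, and VASH1 is the highest point among the modifying enzymes at 2.41.

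The remaining tubulin genes were scarce apart from TUBA1C. TUBA1C rose with As2S2 (0.65 ± 0.08, edgeR, adjusted p = 1.81e-05); with PMA it was higher on the TMM scale (0.31 ± 0.08, adjusted p = 0.00462) and lower on log2 TPM (-0.37, adjusted p = 0.00236). TUBAL3 had 1.58 ± 0.293 TPM in control and rose with As2S2 (0.55 ± 0.19, adjusted p = 0.0279), a call lost on library totals (0.47, adjusted p = 0.0609) and on log2 TPM (0.34, adjusted p = 0.0981). With PMA TUBAL3 did not pass on the TMM scale (-0.42, adjusted p = 0.087) and was lower on library totals (-0.68, adjusted p = 0.00916) and on log2 TPM (-0.66, adjusted p = 0.00246). TUBA8, TUBB4A and TUBB8B stayed under 1.3 TPM in every library and did not pass in either comparison. TUBA3C, TUBA3D, TUBA3E, TUBA4B and TUBB8 had at most 6 counts over all 9 libraries and were not tested.

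Markers of cell types gave a mixed frame for these values, and their part in the tubulin results was not tested. Of 9 tested megakaryocyte markers 4 were higher and 1 lower with As2S2, and 7 were higher and 1 lower with PMA. Over all genes tested 20.3% were higher and 19.6% lower with As2S2, and 30.8% and 31.1% with PMA. With PMA, GP1BB, a chain of the von Willebrand factor receptor, rose by 5.19 ± 0.45 (edgeR, adjusted p = 4.41e-08). Like TUBB1 it rose from near the floor, with 8.62 counts over the control, 4 over the As2S2 and 283 over the PMA libraries. PPBP, a platelet chemokine, rose by 4.55 ± 0.26 (adjusted p = 3.23e-10), from 34 counts over the control libraries to 660 over the PMA libraries. ITGA2B fell by 1.05 ± 0.08 (adjusted p = 1.71e-08). The summed level of all 11 megakaryocyte markers ran from 228 to 242 TPM in control, 181 to 214 TPM in the As2S2 libraries and 156 to 177 in the PMA libraries. Its largest part was ITGA2B, with means of 190, 138 and 68.3 TPM, so the sum mostly reflects that gene. ITGB3 had 11.7, 19.4 and 51.5 TPM in the same order of groups. The 8 erythroid markers summed to 8051 to 8500 TPM in control, 10238 to 11057 with As2S2 and 35019 to 35923 with PMA, nearly all of it HBG2. Of the 8, 3 were higher and 3 lower with As2S2, and 2 were higher and 3 lower with PMA (edgeR). HBG1 also rose, with means of 18.2, 28.5 and 115 TPM. By contrast KLF1 had 32.2, 29.3 and 10.5 TPM, ALAS2 11.3, 6.53 and 4.78 TPM and HBA1 428, 517 and 283 TPM. The 6 monocyte markers summed to 167 to 176, 176 to 197 and 293 to 318 TPM. Most of this was CD68, with means of 147, 163 and 276 TPM, while ITGAM had 3.20, 1.77 and 0.64 TPM. The 7 neuronal markers, listed because TUBB3 and TUBB2B are known from neurons, summed to at most 2.24 TPM in any library; DCX had 0 counts in control and PMA and NEFL 0 in As2S2. Of the 2 neuronal markers tested, MAP2 rose by 4.59 ± 0.43 with PMA (edgeR, adjusted p = 1.1e-07) and SYP by 1.28 ± 0.25 (adjusted p = 0.000368). MAP2 too rose from near the floor, with 10 counts over the control and 204 over the PMA libraries, beside 101 and 200 for SYP. ELAVL4 (11 and 2 counts) and SNAP25 (16.4 and 12.8), which were not tested, went the other way.

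For each isotype the genes of most similar pattern over the 9 libraries were found by Pearson's r of log2 CPM among 9691 candidate genes. These are descriptions: the 9 libraries fall into 3 groups, so a high r mostly says that the group means line up. The 3 closest to TUBB1 were SDHC, ADORA3 and PSMB9 (r = 0.997 each), and to TUBB3 NRGN (0.995), IER3 (0.994) and ZFP36 (0.994). TUBB lay closest to FKBP4 (0.998), AACS (0.997) and CDC20 (0.995), and TUBA1B to ACTB (0.996), NAPA (0.993) and CNN2 (0.992). TUBA4A lay closest to GNAI2 (0.997), TAL1 (0.993) and VCY (0.993), TUBA1A to TBXAS1, SOCS3 and IL10RA, and TUBB6 to EPHX1, PSMC4 and TAL1. TUBB2A lay closest to CPXM1, CD40 and SQSTM1, TUBB2B to ITGA2B and DENND1A, and TUBB4B to RALGDS, SHC1 and ARPC1B, with r from 0.991 to 0.997 for these 5 isotypes.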

How the data were processed

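Poly(A)-selected libraries of 9 MEG-01 samples, 3 each of control, As2S2 and PMA by their titles, came from the NEBNext Ultra II kit per the labels' protocols, and fastp 0.22.0 and DESeq2 were used per the submitters' processing notes. Those notes name zebrafish builds, and 1 control sample has an organism label other than human, while the gene IDs are human Ensembl IDs. No source used here names the aligner, counter, strand setting or annotation.

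The authors deposited estimated counts per gene, not normalized, and TPM values per the file headers. The deposited tables also hold the authors' log2 fold changes and adjusted p-values, in which untested genes carry 1; these were read and none is printed. Counts were rounded. Genes were kept by filterByExpr (14592), scaled by TMM and tested in 1 fit of all 9 libraries with the quasi-likelihood test of edgeR 4.0.16 (R 4.3.3), Benjamini-Hochberg adjusted, at 0.05; SE is the log2 fold change over the root of F. The procedure was tested on simulated data. Shares and ratios used deposited TPM and two-sided exact permutation tests. Count intervals are exact Poisson intervals at 95%; intervals and limits cover counting error only.

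Sequences came from GENCODE 29 transcripts and a RefSeq promoter table (GRCh38.p14). Named genes are all 10 members, other tubulins and TUBB1 regulators, the up to 4 smallest adjusted p per other list and comparison, and the 3 most similar genes of 5 CPM or more on average; TTC5 and TTL were added for their role after their values were seen. A few named genes and 1 coding sequence are left out of the text. Members and lists were chosen with earlier results of these data known. Alternatives were DESeq2 1.42.0, limma-voom (3.58.1), upper-quartile and RLE scaling, no or a stricter filter on low counts, only the groups compared, a length trend, a replicate block, 0.01 as the threshold, a minimum log2 fold change of 1, each library left out, and other denominators of shares. Library totals, log2 TPM and leaving out the libraries that stood apart were chosen after seeing the data.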

Additional observations from a re-analysis of the deposited data

How the results depend on the processing

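Depth limited TUBB1 outside PMA (8 counts over the control and 8 over the As2S2 libraries), and its change with As2S2 turned to -0.26 without control replicate 1 and to -0.28 without As2S2 replicate 3, in a range from -0.28 to 0.47 over the libraries left out in turn. TUBA1B with PMA turned to -0.0301 with no filter on low counts, -0.0700 with a length trend removed, -0.0562 without control replicate 1, -0.0273 without control replicate 3 (at most 0.129 with any library left out), -0.24 on library totals (adjusted p = 0.00805, edgeR) and -0.45 on log2 TPM; the cause was not tested. TUBB4B for As2S2 against PMA turned to 0.0581 on library totals and 0.24 on log2 TPM. With a log2 fold change of at least 1, which by its construction calls fewer genes, 5 isotypes were higher and 0 lower with As2S2, and 3 higher and 1 lower with PMA. For As2S2 against PMA 2 were higher, and TUBB1 (-5.41) and TUBB3 (-1.01) were lower. Over all 14592 genes tested, 1127 were then called with As2S2 (618 higher) and 3060 with PMA (1721 higher). Directly between the treatments it was 3016 (1392 higher with As2S2). With each library left out in turn, 8 isotypes stayed higher and 1 lower with As2S2, 7 were higher and 2 lower with PMA, and 6 to 7 were higher and 2 lower for As2S2 against PMA; TUBB2A was called there in 7 alternatives. Counted in reads, the TUBB1 share differed by 0.334 percentage points (PMA against control) and -0.336 (As2S2 against PMA), beside 0.212 and -0.214 in TPM. The TUBA4A share differed by 5.23 (As2S2 against control), 3.22 (PMA against control) and 2 (As2S2 against PMA) points, by 3.97, 2.23 and 1.74 with all alpha genes in the denominator, and by 5.64 and 2.29 in reads for As2S2 against control and against PMA. The labels do not say whether replicate numbers pair the samples. The correlation of deviations of same-numbered samples ran from -0.0730 to 0.149 between groups, above 0.1 in 1 of 9 pairs. For other-numbered samples it ran from -0.215 to 0.149. Control replicate 2 correlated better with As2S2 replicate 3 (0.149) than with replicate 2 (0.0844). Deviations from a mean of 3 libraries cannot settle whether samples were paired. With the replicate number as a block, 8 isotypes were higher and 1 lower with As2S2, 7 and 2 with PMA, and 6 and 2 for As2S2 against PMA. Of the single-gene values under all alternatives 656 kept their direction and side of the threshold, 15 lost the call, 8 gained it and 10 turned. For As2S2 against PMA the higher share of all calls was 4503 of 8966, 5770 of 9168 on library totals and 6018 of 8340 on log2 TPM, and for As2S2 against control 2962 of 5821, 2292 of 5829 and 1682 of 4725.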
